A study of Mus musculus with 16 samples.

Results

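The liver transcriptome of male mice lacking peroxisome proliferator-activated receptor β/δ (PPARβ/δ, the product of Ppard) was compared with that of wild-type mice, both in the fed state. The comparison holds the 4 arrays labelled knockout and fed and the 4 labelled wild-type and fed, 8 of the 16 arrays of the study, each hybridised with RNA from the liver of a separate mouse. The other 8 arrays were from mice fasted for 24 h, 5 wild-type and 3 knockout, and are used here for the estimate of the spread and for values set side by side. All mice were male, the knockout was kept on a mixed Sv129/C57Bl/6 background, and RNA was taken from the same part of a liver lobe in each mouse. The labels describe the wild-type mice only as corresponding to the knockout mice and name no tissue-specific driver of the deletion. No source used here gives the deleted part of Ppard, the age of the mice or their diet.

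PPARβ/δ is a nuclear receptor that is activated by fatty acids and pairs with a retinoid X receptor (RXR) to bind DNA at direct repeats spaced by a single base. In liver it is found in hepatocytes and in the other resident cells, among them the Kupffer cells, the macrophages of the sinusoids. The related receptor PPARα drives fatty acid oxidation in fasted liver, and PPARγ is known best from adipocytes. PPARβ/δ is known from muscle and skin and for a part in lipid handling and in the activation state of macrophages.

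Expression is given as log2 of the deposited intensity, so that a difference of 1 is a 2-fold difference, and per-mouse values are listed in the order of mice 1 to 4. Differences are knockout minus wild type with their standard error (SE) from a limma fit, and a gene was called changed at an adjusted p (Benjamini-Hochberg over 19935 genes) under 0.05. The arrays had similar medians, between 8.084 and 8.606 in intensity units, and no pair of arrays held identical values. The hepatocyte products were abundant on every fed array, with Alb between 12.19 and 12.44 and Ttr between 11.82 and 12.1. None of the 8 hepatocyte markers was called, and their median difference was -0.01. Some mice stood apart. Knockout fed mice 1 and 4 had high levels of acute phase and endoplasmic reticulum (ER) stress genes, and wild-type fed mice 2 and 4 had high levels of skeletal muscle genes. The muscle actin gene Acta1 measured 3.84, 7.74, 4.08 and 9.57 in wild-type fed mice against 4.64, 4.41, 3.94 and 4.24 in knockout fed mice. Results are therefore also given without the 2 knockout mice and without the 2 wild-type mice. On the first principal component of the fed arrays, which held 32.7% of the variance, the wild-type mice lay between -22.15 and -8.76 and the knockout mice between 4.13 and 23.03, and knockout mice 1 and 4 were the farthest out.

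Ppard itself measured 4.78, 5.5, 5.31 and 4.83 in the wild-type mice against 5, 4.5, 4.45 and 4.89 in knockout fed mice. The groups overlapped, and the difference of -0.39 ± 0.15 did not pass (limma, adjusted p = 0.266). The deleted part is not known here, nor how much of it the probe set covers. A loss of Ppard RNA in the knockout is not shown by these values, and they do not check the genotype. Pparg was lower in each knockout mouse than in each wild-type mouse, at 4.34 ± 0.11 against 4.71 ± 0.26 (mean ± SD, n = 4 each), and its difference of -0.38 ± 0.11 did not pass in the limma fit (adjusted p = 0.134). Ppara measured between 6.99 and 8.03 in knockout and between 7.43 and 8.09 in wild-type fed mice, a difference of -0.23 ± 0.18 (limma, adjusted p = 0.62) that was 0.09 without knockout mice 1 and 4. None of the 12 measured receptors, RXR partners and coregulators was called, and their median difference was -0.16.

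Of the 19935 genes, 135 were called (0.677%): 90 were higher in knockout fed liver (0.451%) and 45 lower (0.226%). Of these, 31 differed by at least 2-fold, 20 upward and 11 downward. The median size of the difference was 0.80 for the genes that were higher and 0.67 for those that were lower, while the median over all genes was 0.01. Over all genes the difference was above 0 for 10417 and below 0 for 9511. In 127 of the 135 the groups did not overlap, which was true of 6.7% of all genes (3.53% with the knockout above and 3.18% with it below). The calls were made on the same values, so a high share without overlap follows from the choice of genes and is no separate evidence. Many genes named below were taken only from calls without overlap, so their groups being apart was fixed by that choice. The largest rises were those of Cyp4a31 (2.47), Acnat2 (2.42), Cyp4a10 (2.07) and Hsd3b3 (1.64), and the largest falls those of Hsd3b2 (-2.65), Serpina12 (-1.88), Nat8f5 (-1.70) and Tmem267 (-1.55). At an unadjusted p under 0.05 there were 2631 genes.

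How many genes passed changed when mice were left out, which also makes the groups smaller and so lowers the power of the fit. Without knockout mice 1 and 4, 51 genes were called (0.256%), 45 of them among the 135, and without wild-type mice 2 and 4, 29 were called (0.145%), 28 of them among the 135. The first 51 were 40 higher (0.201%) and 11 lower (0.0552%), and the 29 were 20 higher (0.1%) and 9 lower (0.0451%). In both settings all 135 genes kept their direction, and the median ratio of the difference to that over all mice was 0.94 without the 2 knockout mice and 1.02 without the 2 wild-type mice. The 135 were chosen on the full set of fed arrays, most of which these fits reuse, so neither value is an independent check. Leaving out wild-type mouse 1, 2, 3 or 4 in turn left 78, 78, 59 and 77 calls. Leaving out knockout mouse 1, 2, 3 or 4 left 76, 200, 274 and 81. In all 8 of these fits 49 genes were called, 36 higher and 13 lower.

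Interferon-stimulated genes formed the group with most calls. They are switched on through interferon receptors and carry the interferon-stimulated response element (ISRE) in many of their promoters, and many of their products act against viruses. Of 46 measured members 19 rose in knockout fed liver and none fell (41.3%, against 0.677% of all genes). The difference was above 0 for all 46, with a median of 0.56 against 0.01 over all genes, and in 30 of the 46 every knockout mouse was above every wild-type mouse, as in 3.53% of all genes. Without knockout mice 1 and 4, 10 members passed, with a median of 0.60, and without wild-type mice 2 and 4, 7 passed, with a median of 0.53. Quantile normalization gave 22 called members with a median of 0.594, and centring each array gave 18 with a median of 0.555.

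Of the 19 members that rose, 13 had promoter windows in the RefSeq table (build GRCm38.p6), each window running from 250 bases before to 50 after a gene's start. Usp18, Rtp4, Zbp1, Ifi27, Oas2 and Parp14 had none. The core letters GAAANNGAA of the ISRE, searched on both strands, were present in 9 of these 13 (69.2%), in 9 of the 21 other list members with a window (42.9%) and in 1432 of all 15561 genes with a window (9.2%). Such a match is a description of the letters and shows no binding. The stretches of the 6 genes with at least 2 ISRE core matches before the start are shown because these genes share the letters more than once. Each reads 5′ to 3′ on the strand of the gene, with the matches in capitals, some of them overlapping. Those of Gbp3, Ifit1 and Ifit3 lie on the opposite strand and so read as the reverse complement.

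Oas1a: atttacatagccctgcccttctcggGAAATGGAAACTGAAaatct
Gbp3: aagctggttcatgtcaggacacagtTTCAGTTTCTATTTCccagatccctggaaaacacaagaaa
Ifit1: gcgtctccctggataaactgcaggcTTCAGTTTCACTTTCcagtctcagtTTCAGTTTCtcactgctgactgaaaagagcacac
Irgm1: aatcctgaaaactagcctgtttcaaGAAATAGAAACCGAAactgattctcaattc
Ifit3: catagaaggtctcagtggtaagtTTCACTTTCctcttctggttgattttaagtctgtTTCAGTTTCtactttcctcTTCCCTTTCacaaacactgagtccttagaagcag
Oas3: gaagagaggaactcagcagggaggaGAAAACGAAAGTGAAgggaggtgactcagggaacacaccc

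In GRCm38.p6 these lie at chr5:120907526-120907570 (minus strand, Oas1a), chr3:142559975-142560039 (plus, Gbp3), chr19:34640755-34640838 (plus, Ifit1), chr11:48871421-48871475 (minus, Irgm1), chr19:34583351-34583460 (plus, Ifit3) and chr5:120777695-120777759 (minus, Oas3). All end before the gene's start in that table. The matches stand closest to the start in Oas1a, where the first base of the nearer match is 14 bases before it, and farthest in Ifit3, at up to 155 bases. The windows of Irf7, Ifit2, Oasl2 and Lgals3bp, which also rose, hold no match.

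Oas1a, a sensor of double-stranded RNA that activates RNase L, measured 3.06, 2.98, 3.77 and 2.8 in the wild-type mice against 4.82, 4.32, 4.59 and 4.82 in knockout fed mice. The groups were apart, and Oas1a rose by 1.48 ± 0.17 (limma, adjusted p = 0.00203). Gbp3, a guanylate-binding GTPase of the response to intracellular pathogens, measured 4.53, 3.97, 4.29 and 4.53 against 5.52, 6.39, 5.55 and 5.62. Gbp3 rose by 1.44 ± 0.20 (limma, adjusted p = 0.00361), and knockout mouse 2 was the highest. Rtp4, an interferon-induced inhibitor of viral replication, was likewise apart, at 5.76, 5.98, 5.7 and 5.91 against 7.38, 7.33, 6.73 and 6.92, and rose by 1.25 ± 0.16 (limma, adjusted p = 0.00203). Zbp1, a sensor of Z-form nucleic acids that can trigger necroptosis, rose by 1.12 ± 0.18 (limma, adjusted p = 0.00655). Its knockout values of 5.16, 5.15, 4.26 and 5.47 all exceeded the highest wild-type value of 4.05. These 4 calls held when each fed mouse was left out in turn, and those of Oas1a, Gbp3 and Rtp4 also without either pair of mice that stood apart. Zbp1 did not pass without knockout mice 1 and 4 (adjusted p = 0.115) or without wild-type mice 2 and 4 (adjusted p = 0.0739).

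Usp18, the protease that removes ISG15 and dampens interferon receptor signalling, measured 4.61, 4.35, 4.28 and 4.62 in wild-type and 6.02, 6.68, 5.43 and 5.11 in knockout fed mice, a rise of 1.34 ± 0.26 (limma, adjusted p = 0.0196). Ifit1, which binds foreign RNA, measured 4.4, 3.87, 4.16 and 4.44 against 5.61, 6.23, 5.03 and 5.05, a rise of 1.27 ± 0.23 (limma, adjusted p = 0.016). In both genes knockout mice 1 and 2 were the higher pair. Both calls were lost without wild-type mouse 2 or 3 or knockout mouse 1, with adjusted p between 0.0517 and 0.0753. Irf7, the transcription factor that amplifies interferon production, measured 5.65, 5.45, 5.06 and 4.98 against 6.36, 7.01, 6.46 and 6.14 and rose by 1.21 ± 0.25 (limma, adjusted p = 0.0361). Its call was lost without wild-type mouse 2, 3 or 4 or knockout mouse 1 or 2 (adjusted p between 0.0657 and 0.12). The near-identical neighbours within the Ifit and Oas families may share signal on these probe sets.

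The other members that rose were Ifi27 (1.06), Trim30a (0.99), Oas2 and Samd9l (0.89 each), Ifit2 (0.87), Irgm1 and Oasl2 (0.80 each), Ifit3 (0.75), Lgals3bp (0.72), Ddx58 (0.63), Parp14 (0.58) and Oas3 (0.41). Ddx58 encodes RIG-I, a cytosolic sensor of viral RNA, and measured between 7.18 and 7.54 in knockout against 6.62 to 6.8 in wild-type fed mice. Among members that did not pass, Mx2 differed by 1.26 ± 0.29 (limma, adjusted p = 0.0538) and Irf9, a subunit of the complex that binds the ISRE, by 0.54 ± 0.13 (limma, adjusted p = 0.0663). The immunoproteasome subunit Psmb8 differed by 0.21 ± 0.16 (limma, adjusted p = 0.622). Ifnb1, an interferon gene, was dim in both groups at 2.08 ± 0.13 in wild-type and 1.92 ± 0.13 in knockout fed mice (mean ± SD, n = 4 each), under the limit of 2.79 that marks the 40th percentile of gene means. Ifnar1, a receptor subunit, differed by -0.06 ± 0.12 (limma, adjusted p = 0.871). Leaving out wild-type mouse 2 or 3 took the number of members called from 19 to 11 in each case, and 10 members passed in all 8 of these fits, among them Trim30a, Oas2, Samd9l, Irgm1, Lgals3bp and Ddx58. The least stable was Parp14, which was lost without any fed mouse but knockout mouse 3 (adjusted p between 0.0541 and 0.133).

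**Figure D1:**
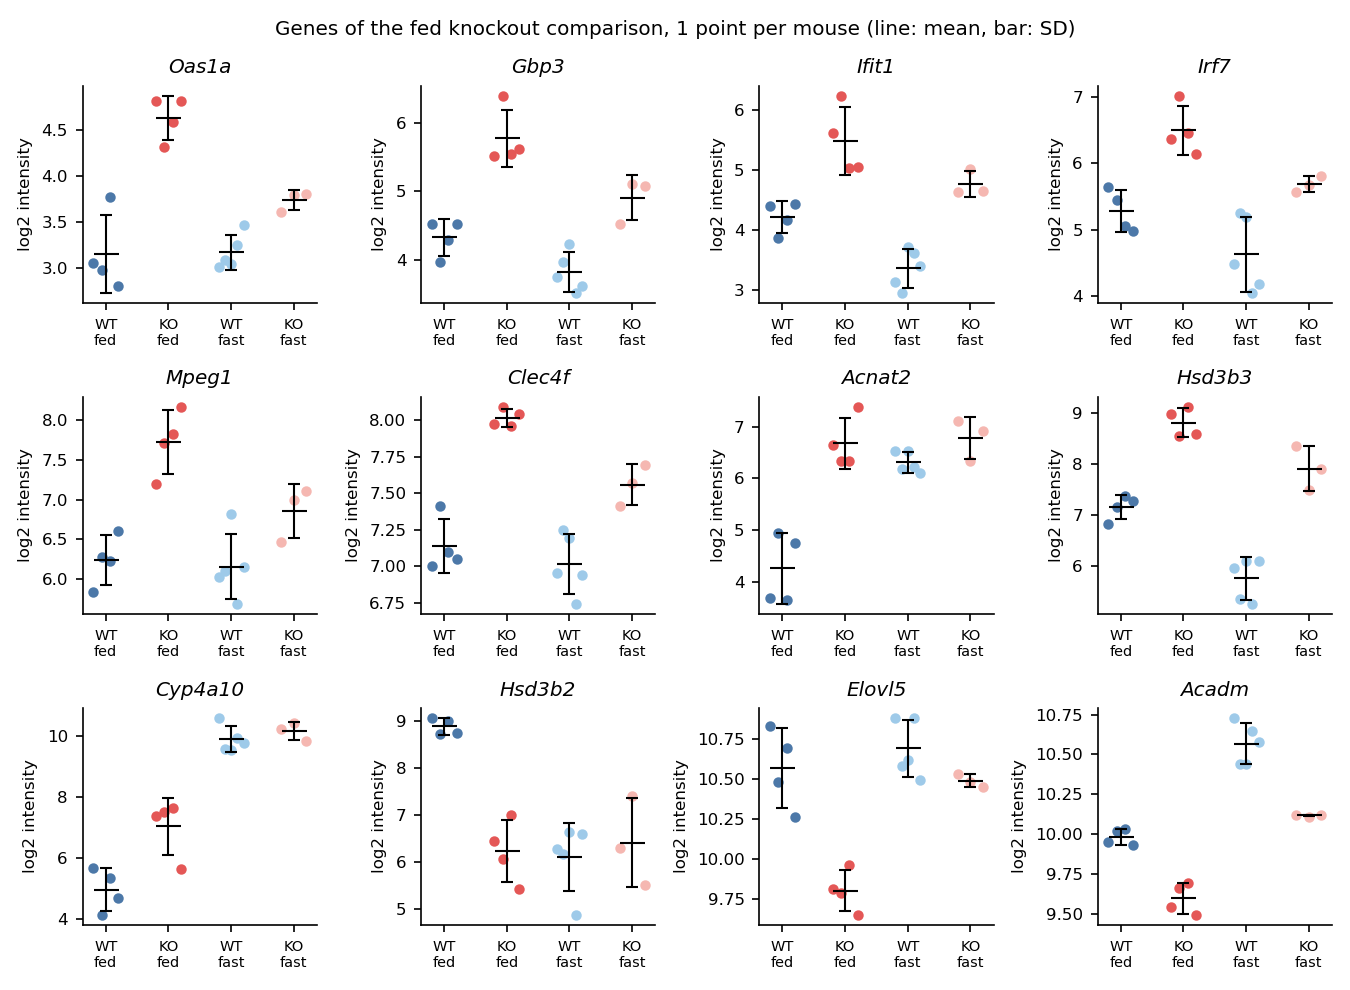
Log2 intensity of 12 genes (vertical axis of each panel) in wild-type (WT) and knockout (KO) mice, fed and fasted, 1 point per mouse, with the group mean and SD as black lines. All knockout fed values of Oas1a, Gbp3, Ifit1 and Irf7 lie above all wild-type fed values, whereas Cyp4a10 overlaps through knockout fed mouse 4 at 5.63.

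Kupffer cell and macrophage genes were the second group with many calls. Of 20 measured markers 6 rose and none fell (30%, against 0.677% of all genes). The difference was above 0 in 19, with a median of 0.57. In 14 of the 20 every knockout mouse was above every wild-type mouse, as in 3.53% of all genes. Clec4f, a lectin that among liver cells is known as a marker of Kupffer cells, measured 7, 7.41, 7.1 and 7.05 in wild-type and 7.97, 8.09, 7.96 and 8.04 in knockout fed mice. The knockout mice were closely spaced and all above the wild type, and Clec4f rose by 0.88 ± 0.11 (limma, adjusted p = 0.00203). Mpeg1, a pore-forming protein of phagocytes, measured 5.83, 6.28, 6.22 and 6.6 against 7.2, 7.72, 7.83 and 8.17, a rise of 1.50 ± 0.23 (limma, adjusted p = 0.00544). Cd5l, a secreted scavenger-receptor protein of tissue macrophages, rose by 0.85 ± 0.15 (limma, adjusted p = 0.0101), from 6.7 ± 0.16 to 7.55 ± 0.12 (mean ± SD, n = 4 each). The calls of Clec4f, Mpeg1 and Cd5l held without each fed mouse in turn. Cd5l did not pass without knockout mice 1 and 4 (adjusted p = 0.0605) or without wild-type mice 2 and 4 (adjusted p = 0.0569).

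C1qb, a chain of the complement component C1q that macrophages make, measured 6.22, 6.4, 6.3 and 6.37 in wild-type and 7.07, 7.03, 7.01 and 7.19 in knockout fed mice, a rise of 0.75 ± 0.14 (limma, adjusted p = 0.0196). The lysosomal protease gene Ctss rose by 0.76 ± 0.16 (limma, adjusted p = 0.0374) and the folate receptor gene Folr2 by 0.65 ± 0.14 (limma, adjusted p = 0.0454). Their calls were less stable: that of C1qb was lost without wild-type mouse 1 or 3 or knockout mouse 1 or 4 (adjusted p between 0.0517 and 0.0669), and those of Ctss and Folr2 were lost without any fed mouse but knockout mouse 3 (adjusted p between 0.0571 and 0.13). The number of markers called was 3 without wild-type mouse 1 or 3 or knockout mouse 1 or 4, and 4 without wild-type mouse 2 or 4. It was 2 without knockout mice 1 and 4 together (median 0.56) and 2 without wild-type mice 2 and 4 together (median 0.61). Quantile normalization gave 11 called markers with a median of 0.615.

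The remaining markers were mostly higher without passing. Cd68 differed by 0.73 ± 0.17 (limma, adjusted p = 0.0608), Adgre1, which encodes F4/80, by 0.49 ± 0.13 (adjusted p = 0.0996) and C1qa by 0.63 ± 0.16 (adjusted p = 0.078). Lysozyme (Lyz2) measured 6.94 ± 0.26 in wild-type and 6.97 ± 0.2 in knockout fed mice (mean ± SD, n = 4 each), and the iron exporter gene Slc40a1 was the only marker with a value below 0 (-0.19 ± 0.11). None of 15 neutrophil and monocyte, 19 T and NK cell, 12 B and plasma cell, 16 sinusoidal endothelial and 14 stellate cell markers was called, with medians of 0.09, 0.10, 0.11, -0.13 and -0.09. The neutrophil gene S100a8 was near the bottom of the scale, with a mean of 2.04 in wild-type and 2.23 in knockout fed liver. In RNA from whole liver, more cells of a type and more RNA per cell cannot be told apart.

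Other genes known from myeloid cells, or from leukocytes more widely, rose as well, all but Ly86 picked out after their values were seen. Ly86, which encodes MD-1, a partner of a Toll-like receptor homologue, measured 3.91, 4.49, 4.16 and 4.16 in wild-type and 5.33, 5.27, 5.18 and 5.51 in knockout fed mice, a rise of 1.14 ± 0.15 (limma, adjusted p = 0.00208). Siglec1, the sialic acid receptor CD169 of resident macrophages, rose by 0.91 ± 0.13 (limma, adjusted p = 0.00361) and Fcgr1, a high-affinity IgG receptor, by 0.90 ± 0.13 (limma, adjusted p = 0.00486). The integrin chain gene Itgb2 rose by 0.87 ± 0.11 (limma, adjusted p = 0.00208). Cybb, a subunit of the phagocyte NADPH oxidase, rose by 0.89 ± 0.17 (limma, adjusted p = 0.0182). Further calls in this direction were Slfn2 (0.96), Cd53 (0.85), Siglece (0.81), Pilra (0.79), Laptm5 (0.73), Itgal (0.72), Sirpa (0.63), Clec7a and Cd86 (0.55 each), Axl (0.53) and Syk (0.45). Most of these calls held without each fed mouse in turn, and those of Ly86, Fcgr1, Itgb2, Siglece and Pilra also without either pair of mice that stood apart. Cd53 was lost without wild-type mouse 3 (adjusted p = 0.056), and Cybb without wild-type mouse 1, 2 or 3 or knockout mouse 4 (between 0.0513 and 0.0616). Itgal and Clec7a were lost without any wild-type mouse or knockout mouse 4 (between 0.0511 and 0.104), and Axl without these or knockout mouse 1 (between 0.0581 and 0.116). The signalling adaptor gene Tyrobp differed by 0.28 ± 0.16 and did not pass (limma, adjusted p = 0.492). Pilra may share signal with its close copy Pilrb1, which also rose (0.86).

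**Figure D2:**
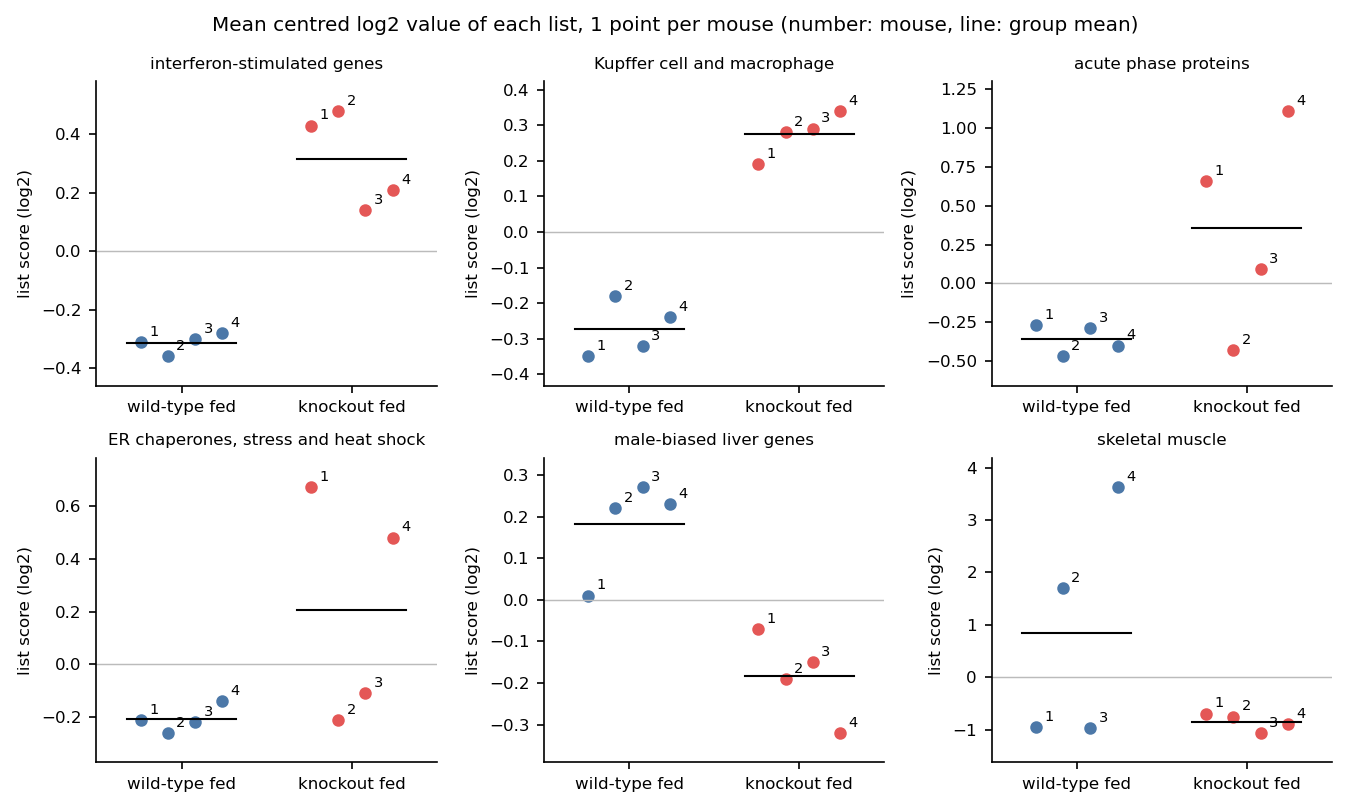
Score of 6 gene lists (vertical axes: mean over members of the log2 value minus the gene's mean over the 8 fed arrays) for each fed mouse, with the mouse number beside each point and the group mean as a line. Interferon and Kupffer cell scores are apart between genotypes, the acute phase and ER stress scores are high in knockout mice 1 and 4, and the skeletal muscle score is high in wild-type mice 2 and 4.

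The list scores show the pattern mouse by mouse. The interferon score was -0.31, -0.36, -0.30 and -0.28 in wild-type and 0.43, 0.48, 0.14 and 0.21 in knockout fed mice. The Kupffer cell score was -0.35, -0.18, -0.32 and -0.24 against 0.19, 0.28, 0.29 and 0.34. In the plot of list scores both groups are apart for these lists, and the knockout mice are ordered differently in each: mice 1 and 2 were high for the interferon list and mouse 4 for the Kupffer list. No gene is in both lists, and whether the rises of the interferon and Kupffer lists are separate was not tested.

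Genes of antigen presentation include the class I molecules that show peptides to T cells and the proteins that load them. Of 29 measured members 4 rose (13.8%, against 0.451% of all genes) and none fell, with a median of 0.16: H2-T24 (1.04 ± 0.23), H2-Q4 (0.81 ± 0.13), Ctss (0.76 ± 0.16) and H2-Q2 (0.47 ± 0.09). Ctss was already counted among the Kupffer cell markers. H2-Q4 measured 5.56, 5.44, 5.51 and 5.14 in wild-type and 6.5, 6.06, 6.17 and 6.16 in knockout fed mice, so that the groups were apart (limma, adjusted p = 0.00734). Its call held without each single fed mouse and was lost without knockout mice 1 and 4 (adjusted p = 0.104) and without wild-type mice 2 and 4 (adjusted p = 0.103). That of H2-T24 (adjusted p = 0.0449) was lost without wild-type mouse 2, 3 or 4 or knockout mouse 1 or 2 (adjusted p between 0.0634 and 0.145), and that of H2-Q2 (adjusted p = 0.0196) without wild-type mouse 1, 2 or 4 or knockout mouse 1 or 4 (adjusted p between 0.055 and 0.0659). The number of members called was 1 without wild-type mouse 2 or 4 or knockout mouse 1, and 2 without wild-type mouse 3 or knockout mouse 4. It was 1 without knockout mice 1 and 4 together and 0 without wild-type mice 2 and 4 together. B2m, the shared light chain of class I, differed by 0.18 ± 0.08 (limma, adjusted p = 0.328). The H2-Q and H2-T genes are close copies of each other, and alleles of this region differ between mouse strains, so these values are uncertain for single genes.

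Of 46 complement and coagulation genes 2 rose (4.35%, against 0.451% of all genes) and none fell, with a median of 0.05. These were C1qb, already counted among the Kupffer cell markers, and Cfp, the gene of properdin (0.70 ± 0.14, limma, adjusted p = 0.0337). Of 50 inflammatory mediators 1 rose (2%, against 0.451% of all genes). Ccl24, a chemokine for eosinophils, measured 3.35, 3.31, 3.54 and 3.43 in wild-type and 4.06, 3.73, 3.96 and 3.94 in knockout fed mice. It rose by 0.52 ± 0.08 (limma, adjusted p = 0.00486). The call of Ccl24 held without each single fed mouse, and was lost without knockout mice 1 and 4 (adjusted p = 0.0811) and without wild-type mice 2 and 4 (adjusted p = 0.0684). The inflammatory list had 4 calls without knockout mouse 2 and 4 without knockout mouse 3, all higher. These fits called 156 and 126 of all 19935 genes higher. Cfp was called only with wild-type mice 1 to 4 and knockout mice 1 and 4 all present (adjusted p between 0.0664 and 0.114 without any of these).

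Acute phase genes, which hepatocytes switch on in response to interleukin-6 and related signals, had large differences that did not pass. None of 46 was called, 43 were above 0 and the median was 0.33. Without knockout mouse 2, 7 members were called higher, when 156 of all 19935 genes were. The serum amyloid gene Saa2 measured 5.74, 4.93, 6.08 and 5.72 in wild-type and 10.69, 5.62, 8.88 and 11.48 in knockout fed mice, a difference of 3.55 ± 0.91 (limma, adjusted p = 0.0849). Lcn2, an iron-siderophore binding protein, measured 8.87, 4.92, 6.59 and 10.83 in knockout fed mice against 3.8 to 5.56 in wild-type, a difference of 3.12 ± 0.90 (limma, adjusted p = 0.129). In both genes knockout mouse 2 lay within the wild-type range, and mice 1, 3 and 4 lay above it. Without mice 1 and 4 the median of the list was 0.10, that of 35 ER stress and heat shock genes went from 0.34 to 0.03, that of 50 inflammatory genes from 0.28 to 0.08 and that of 27 immediate early genes from 0.19 to 0.00. None of the ER stress or immediate early genes was called over all mice. Without knockout mouse 2, 7 ER stress genes were called higher, and without knockout mouse 3, 1 was, when 126 of all genes were. The ER stress gene Creld2, the largest of its list, measured 9.24, 6.95, 6.98 and 9.17 in knockout fed mice against 6.59 to 6.93 in wild-type, a difference of 1.33 ± 0.42 (limma, adjusted p = 0.164). The growth regulator Myc measured 7.22, 4.29, 4.73 and 4.05 in knockout fed mice, high in mouse 1, and differed by 1.03 ± 0.48 (adjusted p = 0.371). The part of these responses in the calls of other genes was not tested. Knockout mouse 3, which lay above the wild-type range for Saa2 and Lcn2, stays in the fit without mice 1 and 4.

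**Figure D3:**
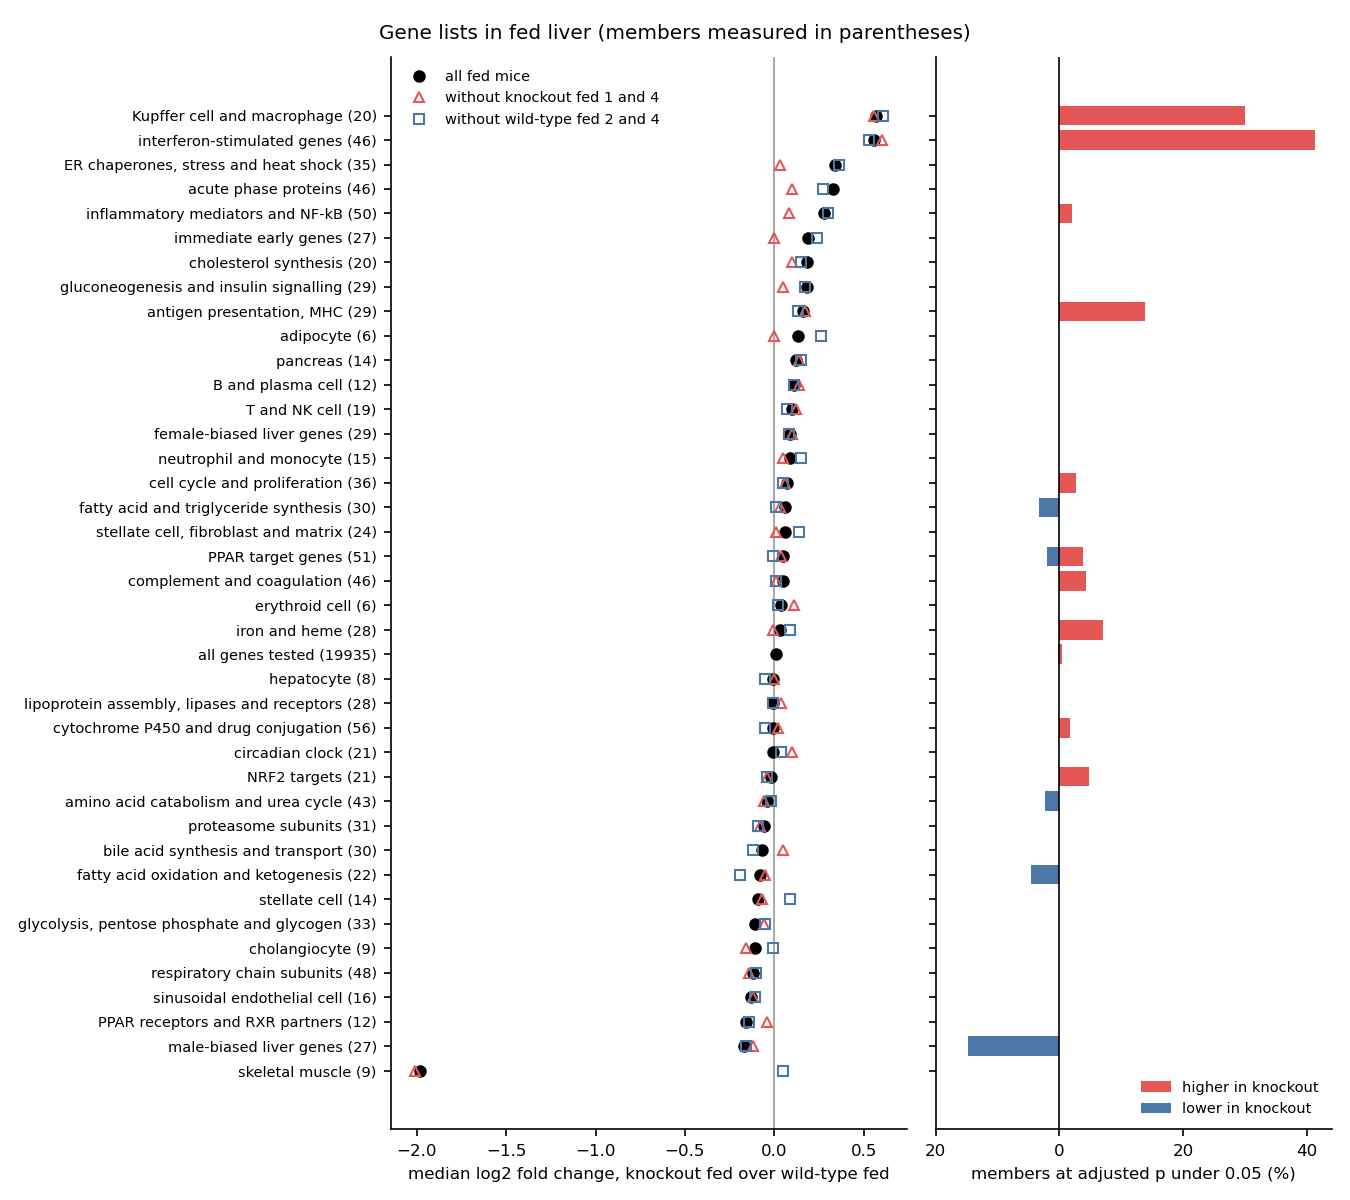
Left, median log2 fold change of each gene list, knockout over wild type in fed liver, over all fed mice (circles), without knockout mice 1 and 4 (triangles) and without wild-type mice 2 and 4 (squares). Right, the percentage of measured members called higher or lower: interferon-stimulated genes reach 41.3% and Kupffer cell markers 30%, against 0.677% of all genes.

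Targets of the PPAR receptors take up, activate and oxidise fatty acids, and PPARα and PPARβ/δ share many of them. Of 51 measured targets 2 rose and 1 fell (5.88%, against 0.677% of all genes), and the median was 0.05. Cyp4a10, a fatty acid omega-hydroxylase, measured 5.68, 4.12, 5.34 and 4.69 in wild-type and 7.36, 7.49, 7.63 and 5.63 in knockout fed mice. The groups overlapped through knockout mouse 4, and Cyp4a10 rose by 2.07 ± 0.39 (limma, adjusted p = 0.0196). Its neighbour and close copy Cyp4a31 measured 5.25, 3.24, 4.3 and 3.04 against 7, 6.84, 6.95 and 4.91, with the same mouse low, and rose by 2.47 ± 0.49 (limma, adjusted p = 0.0277). A related hydroxylase, Cyp4a14, measured 5.67, 2.81, 4.2 and 2.81 against 7.58, 6.3, 7.18 and 4.24, a difference of 2.45 ± 0.64 that did not pass (limma, adjusted p = 0.0914). The sequences of these genes are similar enough that their probe sets may share signal.

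These calls were lost in some fits without a single mouse, which also have fewer mice. Over these fits the Cyp4a10 difference lay between 1.79 and 2.54 and that of Cyp4a31 between 2.16 and 2.97. No target was called higher without wild-type mouse 2 or 4 or knockout mouse 1. Without wild-type mouse 1 or knockout mouse 4, 3 were, when 53 and 59 of all 19935 genes were called higher. The call of Cyp4a10 was lost without wild-type mouse 2 or 4 or knockout mouse 1 (adjusted p between 0.0627 and 0.0667), and that of Cyp4a31 without wild-type mouse 2, 3 or 4 or knockout mouse 1 or 2 (adjusted p between 0.0528 and 0.0887). Without knockout mice 1 and 4 the rises were 2.60 (adjusted p = 0.00963) and 2.93 (adjusted p = 0.0257), and without wild-type mice 2 and 4 the differences were 1.52 and 1.65 and neither passed. In mice fasted for 24 h, where Cyp4a10 lay between 9.55 and 10.59 in all 8 mice, the knockout difference was 0.28 ± 0.40 (limma, adjusted p = 0.867).

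Acadm, the medium-chain acyl-CoA dehydrogenase of mitochondrial β-oxidation, measured 9.95, 10.02, 10.03 and 9.93 in wild-type and 9.54, 9.66, 9.69 and 9.49 in knockout fed mice. It fell by 0.39 on the log2 scale, a small difference with an SE of 0.08 (limma, adjusted p = 0.0258). The call was lost without wild-type mouse 1, 2, 3 or 4 or knockout mouse 1 or 4 (adjusted p between 0.0528 and 0.0908), while fasted knockout mice were lower by a similar amount, with a difference of -0.45 ± 0.08 (limma, adjusted p = 0.0138). Acadm was the only call among 22 genes of fatty acid oxidation and ketogenesis (4.55%, against 0.677% of all genes), whose median was -0.08. Other targets did not pass: Pdk4, a brake on glucose oxidation, differed by -1.04 ± 0.56 (limma, adjusted p = 0.454), the pantetheinase gene Vnn1 by 1.27 ± 0.50 (adjusted p = 0.272), Angptl4, an inhibitor of lipoprotein lipase, by 0.18 ± 0.20 (adjusted p = 0.742) and Cpt1a, the entry step of β-oxidation, by -0.10 ± 0.17 (adjusted p = 0.834). The DR1 motif, the binding site of PPAR and RXR pairs, searched on both strands, was found in 1 of 41 target promoters with a window (2.44%) and in 0.411% of all promoters. The share among targets rests on 1 gene, the windows reach only 250 bases before the start, and a match shows no binding.

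Acnat2, of the acyl-CoA:amino acid N-acyltransferase family, had the largest rise among called genes whose groups did not overlap. It measured 3.69, 4.95, 3.64 and 4.75 in wild-type and 6.65, 6.33, 6.34 and 7.38 in knockout fed mice. Acnat2 rose by 2.42 ± 0.29 (limma, adjusted p = 0.00203), and its call held without each fed mouse, without knockout mice 1 and 4 (2.08, adjusted p = 0.0177) and without wild-type mice 2 and 4 (3.01, adjusted p = 0.00016). The fasted mice of both genotypes lay between 6.11 and 7.1, a range that held knockout fed mice 1, 2 and 3, with mouse 4 above it. Its neighbours in function did not pass: Acnat1 differed by 0.23 ± 0.09 (limma, adjusted p = 0.297) and Baat, the bile acid acyltransferase, by 0.04 ± 0.09 (adjusted p = 0.882). Whether the probe sets of Acnat1 and Acnat2 share signal was not tested.

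Of 30 genes that build fatty acids and triglycerides 1 fell (3.33%, against 0.226% of all genes) and none rose, with a median of 0.06. Elovl5, an elongase of polyunsaturated fatty acids, measured 10.83, 10.48, 10.69 and 10.26 in wild-type and 9.81, 9.79, 9.96 and 9.65 in knockout fed mice. The groups were apart, Elovl5 fell by 0.76 on the log2 scale with an SE of 0.12 (limma, adjusted p = 0.00544), and the call held without each single fed mouse. Elovl5 did not pass without knockout mice 1 and 4 (-0.69, adjusted p = 0.0873) and passed without wild-type mice 2 and 4 (-0.96, adjusted p = 0.00761). The desaturases of the same pathway differed by 0.05 ± 0.10 (Fads1, limma, adjusted p = 0.87) and 0.06 ± 0.10 (Fads2, adjusted p = 0.855). Fasn, the fatty acid synthase, differed by 0.50 ± 0.16 and did not pass (limma, adjusted p = 0.169). None of 20 cholesterol synthesis, 28 lipoprotein, 33 glycolysis and glycogen, 29 gluconeogenesis and insulin signalling and 30 bile acid genes was called, with medians of 0.18, -0.01, -0.11, 0.18 and -0.07. The lipoprotein and gluconeogenesis lists each had 2 members called without knockout mouse 2, when 200 of all 19935 genes were called. Without knockout mouse 3, 2 bile acid genes were called, when 274 of all genes were. Cyp7a1, the rate-limiting enzyme of bile acid synthesis, differed by -0.02 ± 0.36 (limma, adjusted p = 0.985). Ppp1r3c, a glycogen-targeting subunit of protein phosphatase 1, had the largest of these glycogen differences, at -1.70 ± 0.44 with groups apart (limma, adjusted p = 0.0867).

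The steroid dehydrogenases of the Hsd3b family moved in opposite directions. Hsd3b2 measured 9.07, 8.73, 9.01 and 8.74 in wild-type and 6.45, 6.07, 7 and 5.42 in knockout fed mice, the largest fall among the called genes at -2.65 ± 0.40 (limma, adjusted p = 0.0052). Its neighbour Hsd3b3 measured 6.82, 7.16, 7.38 and 7.27 against 8.97, 8.54, 9.11 and 8.58 and rose by 1.64 ± 0.22 (limma, adjusted p = 0.00208). Hsd3b5, the form best known from male liver, measured 8.34 ± 0.11 in wild-type and 8.36 ± 0.3 in knockout fed mice (mean ± SD, n = 4 each). Both calls held without each fed mouse in turn. Hsd3b2 no longer passed without knockout mice 1 and 4 (-2.35, adjusted p = 0.0649) or without wild-type mice 2 and 4 (-2.80, adjusted p = 0.0539). The members are near-identical in sequence, so how the signal is split between them is uncertain.

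In fasted mice the family differed otherwise. The knockout difference there was 0.30 ± 0.42 for Hsd3b2 (limma, adjusted p = 0.861), with all fasted mice between 4.87 and 7.4, and 2.14 ± 0.22 for Hsd3b3 (adjusted p = 0.000367). For Hsd3b5 it was 2.74 ± 0.27 (adjusted p = 0.000367), and the difference between the fed and the fasted knockout effect was -2.72 ± 0.38 (limma interaction, adjusted p = 0.0284). That call was lost without wild-type mouse 3 or 4 or knockout mouse 1 or 4 (adjusted p between 0.0648 and 0.0942), without knockout mice 1 and 4 together (0.168) and without wild-type mice 2 and 4 together (0.071), with the difference between -2.50 and -2.79. For Hsd3b2 that difference was -2.95 ± 0.58 and did not pass (adjusted p = 0.15).

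Of 27 measured genes that are higher in male than in female mouse liver, which follow the male pattern of growth hormone release, 4 fell and none rose (14.8%, against 0.226% of all genes that were lower), and the median was -0.17 against 0.34 in fasted mice. These were Hsd3b2, Serpina12, Nat8f5 and Mup21. Nat8f5, an N-acetyltransferase, measured 4.01, 4.56, 3.58 and 4.87 in wild-type and 2.92, 2.68, 2.17 and 2.45 in knockout fed mice, near or under the dim limit of 2.79, and fell by 1.70 on the log2 scale with an SE of 0.29 (limma, adjusted p = 0.0101). Its close copy Nat8, which adds acetyl groups to cysteine conjugates, was lower too, with a difference of -1.10 ± 0.19 (limma, adjusted p = 0.0106). Mup21, a major urinary protein, measured 9.2, 9.62, 9.73 and 9.61 against 8.95, 7.51, 8.13 and 7.73, a difference of -1.46 ± 0.30 (limma, adjusted p = 0.0361). Serpina12, the adipokine vaspin, overlapped, at 5.02, 6.48, 6.87 and 6.18 against 3.56, 4.4, 5.37 and 3.71, with a difference of -1.88 ± 0.40 (limma, adjusted p = 0.0389).

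The calls of Nat8f5 and Nat8 held without each single fed mouse. Nat8f5 did not pass without knockout mice 1 and 4 (adjusted p = 0.0575), and neither passed without wild-type mice 2 and 4 (adjusted p = 0.144 and 0.103). That of Mup21 was lost without any wild-type mouse and without knockout mouse 2 or 4 (adjusted p between 0.0534 and 0.116), and that of Serpina12 without wild-type mouse 2, 3 or 4 or knockout mouse 1, 2 or 4 (adjusted p between 0.0501 and 0.13). Between 2 and 4 members passed when single mice were left out, 1 without knockout mice 1 and 4 and none without wild-type mice 2 and 4. Classical male-biased genes did not pass: Elovl3 differed by -0.17 ± 0.22 (limma, adjusted p = 0.775) and Cyp7b1 by -0.19 ± 0.25 (adjusted p = 0.782). None of 29 female-biased genes was called, with a median of 0.09. The largest difference among them was that of Cyp17a1, a steroid hydroxylase, at 4.35, 6.75, 4.21 and 5.32 in wild-type and 7.73, 8.38, 7.45 and 8.24 in knockout fed mice, a difference of 2.80 ± 0.64 with groups apart (limma, adjusted p = 0.0574).

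Heme metabolism held 2 of the larger rises. Alas1, the rate-limiting enzyme of heme synthesis, measured 8.98, 8.7, 8.3 and 7.68 in wild-type and 10.43, 8.96, 10.39 and 9.99 in knockout fed mice, overlapping through knockout mouse 2, and rose by 1.53 ± 0.31 (limma, adjusted p = 0.0325). Hmox1, the heme oxygenase that degrades heme and a target of NRF2, measured 5.26, 5.13, 5.09 and 5.41 against 7.12, 5.58, 6.31 and 7.07 and rose by 1.29 ± 0.27 (limma, adjusted p = 0.0389). For Hmox1 knockout mice 1 and 4 were the highest, and without them the difference was 0.72 (adjusted p = 0.359). That of Alas1 was then 1.26 (adjusted p = 0.298). Each call was lost in 6 of the 8 fits without single mice. For Alas1 these left out wild-type mouse 2, 3 or 4 or knockout mouse 1, 3 or 4 (adjusted p between 0.0539 and 0.102), and for Hmox1 any wild-type mouse or knockout mouse 1 or 4 (between 0.0717 and 0.118). They were the only calls among 28 iron and heme genes (7.14%, against 0.677% of all genes). Hmox1 was the only call among 21 NRF2 targets (4.76%). Without knockout mouse 2, 4 of the iron and heme genes were called higher, when 156 of all 19935 genes were.

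Single members of other lists were called. They were 1.79% of cytochrome P450 and conjugation, 2.33% of amino acid and 2.78% of cell cycle genes, against 0.677% of all genes. Sult1a1, a sulfotransferase for phenols, rose by 0.77 ± 0.16 (limma, adjusted p = 0.0361), the only call among 56 cytochrome P450 and conjugation genes. It was lost without any wild-type mouse and without knockout mouse 1 or 4 (adjusted p between 0.062 and 0.107). Bckdhb, a subunit of the complex that degrades branched-chain amino acids, measured 8.64, 8.72, 8.77 and 8.7 in wild-type and 8.02, 7.91, 8.06 and 8.2 in knockout fed mice. Bckdhb was the only call among 43 amino acid and urea cycle genes, with a difference of -0.66 ± 0.10 (limma, adjusted p = 0.00544) that held without each single fed mouse and was lost without wild-type mice 2 and 4 (adjusted p = 0.0684). The cyclin gene Ccnd1, which drives entry into the cell cycle, rose by 1.08 ± 0.21 (limma, adjusted p = 0.0269), the only call among 36 cell cycle genes. It was lost without wild-type mouse 2, 3 or 4 or knockout mouse 1 (adjusted p between 0.0686 and 0.0967).

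None of 31 proteasome, 48 respiratory chain and 21 clock genes was called. For the respiratory chain 45 of 48 subunits were below 0, with a median of -0.12 that was -0.14 without knockout mice 1 and 4 and -0.10 without wild-type mice 2 and 4. The largest of these was Sdhd, a membrane anchor of succinate dehydrogenase, at -0.40 ± 0.12 (limma, adjusted p = 0.156). The clock repressor gene Per1 differed by 0.65 ± 0.17 (limma, adjusted p = 0.095), and the proteasome subunit gene Psma7 by -0.30 ± 0.08 (adjusted p = 0.095).

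Several of the larger falls belonged to no list. Nt5e, the ectonucleotidase CD73 that makes adenosine, measured 5.53, 5.04, 5.37 and 4.95 in wild-type and 3.98, 3.94, 4.13 and 3.48 in knockout fed mice, with a difference of -1.34 ± 0.22 (limma, adjusted p = 0.00698). Cd59a, an inhibitor of the complement membrane attack complex, measured 7.61, 7.16, 7.46 and 7.49 against 6.18, 6.23, 6.58 and 6.45, with a difference of -1.07 ± 0.15 (limma, adjusted p = 0.0039). Grk5, a kinase of G protein-coupled receptors, measured 4.47, 5.08, 5.05 and 4.65 against 3.93, 3.93, 4.12 and 3.93, a difference of -0.83 ± 0.13 (limma, adjusted p = 0.00634). In all 3 genes the call held without each fed mouse in turn. Their groups were apart, which the rule that named them required. Nt5e did not pass without knockout mice 1 and 4 (adjusted p = 0.102), nor did Grk5 (0.094), which also did not pass without wild-type mice 2 and 4 (0.0684).

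Tpmt, which methylates thiopurines, differed by -1.02 ± 0.18 (limma, adjusted p = 0.0152) and was not called without wild-type mouse 1 or 3 or knockout mouse 1 (adjusted p between 0.0505 and 0.06). Sirt5, a mitochondrial desuccinylase chosen after its values were seen, differed by -0.78 ± 0.14 (limma, adjusted p = 0.0106), and Nmrk1, a nicotinamide riboside kinase chosen likewise, by -0.70 ± 0.13 (adjusted p = 0.0164). The call of Nmrk1 was lost without wild-type mouse 1 or 2 or knockout mouse 4 (adjusted p between 0.055 and 0.0606). Wdr72 (-0.88 ± 0.16, adjusted p = 0.0134), Olfml1 (-0.83 ± 0.15, adjusted p = 0.0166) and Ciapin1 (-0.82 ± 0.18, adjusted p = 0.0449) complete the named falls, together with Tmem267. Wdr72 was not called without wild-type mouse 3 (adjusted p = 0.056), Olfml1 without wild-type mouse 3 or 4 or knockout mouse 1 or 4 (between 0.0517 and 0.0694), and Ciapin1 without any fed mouse but knockout mouse 2 (between 0.0623 and 0.126).

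The fasted mice are not among the arrays compared in the fed contrast, so the same genes can be read a second time. Both comparisons come from 1 fit and share its estimate of the spread, so their calls are not fully separate. Between fasted knockout and fasted wild-type mice 107 genes were called (0.537%), 70 higher and 37 lower. Of the 135 genes called in fed mice 16 were also called in fasted mice, 11 higher and 5 lower and all in the same direction, which is 11.9% of the fed and 15% of the fasted calls. For 115 of the 135 the fasted difference had the same sign, as it did for 46% of all genes. Among interferon-stimulated genes 9 of 46 were called higher in fasted mice (0.351% of all genes were), with a median of 0.49, and among Kupffer cell markers 1 of 20, with a median of 0.32. Cd59a had -1.15 ± 0.16 in fasted mice (limma, adjusted p = 0.00326), Rtp4 1.00 ± 0.16 (adjusted p = 0.0109) and Ly86 0.99 ± 0.16 (adjusted p = 0.00911).

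**Figure D4:**
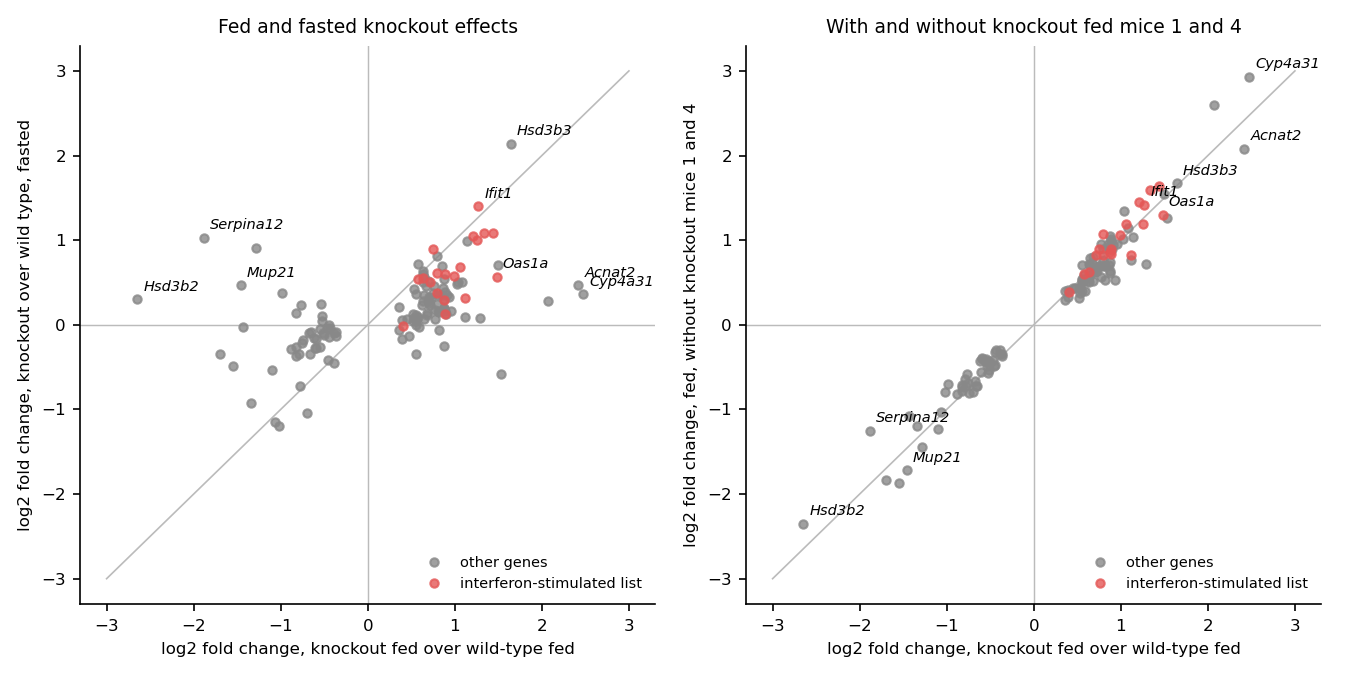
Log2 fold change of the 135 genes called in fed liver (horizontal axes) against their value in fasted liver (left) and in fed liver without knockout mice 1 and 4 (right), with interferon-stimulated genes in red and the line of equal values in grey. Of the 135, 115 have the same sign in fasted liver and all 135 have it without the 2 mice. The right panel reuses most of the arrays on which the 135 were chosen and is no independent check.

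The difference between the fed and the fasted knockout effect was called for 2 genes (0.01%), Hsd3b5 and Tc2n, and for none of the 135. In the limma interaction 83 of the 135 and 2440 of all 19935 genes had an unadjusted p under 0.05. The 135 were chosen on fed values that enter the interaction, which favours a low p among them. After adjustment the lowest p of the interaction among the 135 was 0.15. No gene of the fed comparison is therefore shown to be confined to the fed state, although Acnat2 had 2.42 in fed and 0.47 ± 0.30 in fasted mice (interaction 1.95 ± 0.41, limma, adjusted p = 0.15).

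Because the knockout was kept on a mixed background, genes near Ppard on chromosome 17 can carry alleles of another strain. By the gene order of the RefSeq table, none of the nearest 100 tested genes (50 on each side) was called. Among 300 (150 on each side) 1 was called (0.333%, against 0.677% of all genes): Gpsm3, a regulator of G protein signalling in leukocytes, which differed by 0.55 ± 0.12 (limma, adjusted p = 0.0399). It was not called without any fed mouse but knockout mouse 3 (adjusted p between 0.0606 and 0.13). Among 598 genes there were 4 (0.669%), the other three being H2-Q2, H2-Q4 and H2-T24.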

How the data were processed

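Liver RNA of 16 mice, 1 Affymetrix whole-transcript array each, was compared. The authors deposited probe set intensities on a linear scale, made with RMA per the submitters' processing notes (no version given); log2 was taken here. Of 35519 probe sets 21780 had 1 gene symbol in GEO's platform annotation, 1605 several and 12134 none. The brightest probe set stood for each of 19935 genes (998 had several). With 1 fit of 4 group means over all arrays, limma 3.58.1 (R 4.3.3) estimated the knockout effect in fed mice, in fasted mice and their difference (two-sided, Benjamini-Hochberg). The number of arrays limits the precision. The script was tested on simulated data.

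The members and the 39 gene lists (1046 of 1169 written members matched) were chosen with earlier results of these data known. Named genes were the PPAR receptors, the 12 largest rises and falls with groups apart (named loci only), up to 4 called members per list in its leading direction and 2 in the other, or the largest difference of a list without a call, called genes among the 150 on each side of Ppard, and interaction calls. Others are marked as chosen after their values were seen, or are list members given by value. Samples sharing a replicate number were not paired by the labels. Members not matched were not analysed here.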

Additional observations from a re-analysis of the deposited data

Results flagged for a closer look

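In 6 of 196 groups of 4 mice examined, 1 mouse lay farther from the rest than Dixon's critical share of the group's range, where chance gives about 1 in 20. Knockout fed mouse 2 was high for Gbp3 at 6.39 (others 5.52 to 5.62), knockout fed mouse 3 for Grk5 at 4.12 (others 3.93), and knockout fed mouse 4 for Cyp51, a sterol demethylase, at 8.29 (others 7.92 to 7.93). Knockout fed mouse 4 was low for Cyp4a31 at 4.91 (others 6.84 to 7) and for Cyp4a10 at 5.63 (others 7.36 to 7.63). Wild-type fed mouse 4 was low in the score of the cholesterol synthesis list at -0.40 (others -0.01 to 0.06).

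The fed and the fasted knockout effect differed for Hsd3b5 (-2.72, fed minus fasted; limma interaction, adjusted p = 0.0284) and for Tc2n (-0.95, adjusted p = 0.0284). Both calls were lost without wild-type fed mouse 3 or 4, knockout fed mouse 1 or 4, or knockout fed mice 1 and 4 together; for Hsd3b5 the adjusted p was then between 0.0648 and 0.168, and for Tc2n between 0.065 and 0.177. Hsd3b5 was also lost without wild-type fed mice 2 and 4 (0.071) and Tc2n with the replicate block (0.11). Tc2n was dim, with fed means of 2.32 in wild-type and 1.95 in knockout mice.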

How the results depend on the processing

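Against 135 genes called (90 higher, 45 lower), the fed arrays alone gave 76 (53 and 23), the fit without knockout fed mice 1 and 4 gave 51 (40 and 11), and the fit without wild-type fed mice 2 and 4, chosen after seeing the data, 29 (20 and 9). Leaving out 1 fed mouse gave 59 to 274 calls (42 to 156 higher, 17 to 148 lower). With the replicate block there were 170 (97 higher, 73 lower). Same-numbered mice did not deviate together (correlations of 0.005, 0.088, 0.231 and -0.004), so the numbers are not taken to pair them. Quantile normalization (180), centred arrays (116), dim genes left out (164), the median of probe sets (134), all probe sets (141), a variance trend (137) and array weights (136) stayed within 1.5 times. The 2 interaction calls became 1 without knockout fed mice 1 and 4, 1 with the replicate block and 0 to 8 without single mice. Near Ppard, 1 call became 0 with 50 genes on each side, 4 with 300, and 0 without either pair of mice. Uncalled values changed sign for Ppara (0.091) and Mt2 (-0.225) without knockout mice 1 and 4, and for Hsd3b5 without wild-type fed mice 2 and 4 (-0.049), or without single mice (-0.103 to 0.133). For these changes the cause was not tested.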

Other observations

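Around Nnt on chromosome 13, 3 of 5 genes in a row by RefSeq order were called, a stretch picked out after its values were seen. Nnt, the mitochondrial nicotinamide nucleotide transhydrogenase that the C57BL/6J strain lacks in part, measured 7.52, 6.78, 6.92 and 7.56 in wild-type and 8.24, 8.1, 8.09 and 7.96 in knockout fed mice (0.90 ± 0.14, limma, adjusted p = 0.00538). 4833420G17Rik measured 5.84, 6.1, 5.95 and 5.76 against 4, 4.77, 4.9 and 4.24 (-1.43 ± 0.17, limma, adjusted p = 0.00203). Tmem267 measured 5.71, 5.28, 4.7 and 4.09 against 3.74, 3.38, 2.76 and 3.69 (-1.55 ± 0.31, limma, adjusted p = 0.027); its call was lost without wild-type mouse 1, 2 or 3 (adjusted p between 0.056 and 0.0819). Paip1, between them, differed by -0.39 ± 0.11 (limma, adjusted p = 0.119). In fasted mice these genes differed by 0.14 ± 0.14 (Nnt), -0.03 ± 0.18 (4833420G17Rik) and -0.49 ± 0.32 (Tmem267), and none passed. Chromosome 19 held 13 calls among 675 tested genes (1.93%, against 0.677% of all genes).

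Adjacent called genes by that order included Nat8f5 with Nat8, Hsd3b2 with Hsd3b3, Cyp4a10 with Cyp4a31, Ifit2 with Ifit3 and Oas2 with Oas3. The direction was the same in each of these pairs but Hsd3b2 (-2.65) and Hsd3b3 (1.64).

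Other genes with large differences did not pass. Gdpd3, a lysophospholipase D, measured 4.35, 4.61, 4.76 and 5.65 in wild-type and 2.3, 2.36, 2.45 and 2.78 in knockout fed mice, at or under the dim limit, a difference of -2.37 ± 0.60 (limma, adjusted p = 0.0835). Asic5, an ion channel gated by bile acids, measured 8.17, 7.65, 8.77 and 8.17 against 4.87, 6.36, 6.92 and 6.19 (-2.10 ± 0.49, limma, adjusted p = 0.0606), and its difference in fasted mice was -2.32 ± 0.51 (adjusted p = 0.0511). Both were chosen after their values were seen. The metallothionein gene Mt2 measured 9.64, 3.07, 4.62 and 10.47 in knockout fed mice against 3.81 to 4.33 in wild-type, with mice 1 and 4 far above the rest.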
